A study of Mus musculus with 37 samples.

Results

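The change in RNA between the late 1-cell stage and the early 2-cell stage was measured in mouse embryos whose oocytes had lost Bap1. The comparison takes 6 of the 37 libraries of the series: 3 of late 1-cell and 3 of early 2-cell maternal knockout embryos, over all 55401 genes of the deposited table. The embryos came from Gdf9-iCre, Bap1 flox/flox females mated to B6 males. The iCre recombinase is driven by the promoter of Gdf9, an oocyte gene, so Bap1 was removed in the growing oocyte, while the wild-type sperm brought an intact paternal copy into each embryo. Control embryos came from Bap1 flox/flox females without iCre and B6 males, so their maternal alleles also carried the flox sites; 2 late 1-cell and 3 early 2-cell control libraries are given beside the knockouts. Knockout fully grown oocytes, MII eggs and late 2-cell embryos, with 3 libraries each, place the step in time. Embryos were cultured in KSOM medium, and libraries were made from total RNA with a stranded kit. Neither the animal ages nor the number of embryos in a library is in the labels. Nothing in the labels says that libraries of a group came from separate females or collections, so p-values measure only the spread between these libraries, which may be technical.

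BAP1 is a nuclear ubiquitin hydrolase that, with an ASXL partner, removes the ubiquitin that Polycomb repressive complex 1 places on histone H2A. In the mouse the egg is transcriptionally silent and lives on stored maternal RNA. Transcription starts weakly late in the 1-cell stage and strongly during the 2-cell stage, when families such as Zscan4 and Usp17l are switched on for a short time by factors that include the homeobox proteins DUX and OBOX. Over the same hours stored maternal RNAs are deadenylated and destroyed. The step from late 1-cell to early 2-cell thus spans the first embryonic division, the opening of transcription and a wave of RNA clearance.

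Levels are given in FPKM as deposited: fragments scaled to the length of the gene and to the depth of the library, so a share of a library and not an amount per embryo. Fewer embryos that had reached a state and less RNA per embryo cannot be told apart in such libraries. Sums of FPKM were 310677 to 317521 in the late 1-cell knockouts and 325937 to 350300 in the early 2-cell knockouts. The most abundant gene, Gm23935, annotated as a microRNA gene, took 8.89% to 10.03% of the sum at late 1-cell and 11.49% to 13.42% at early 2-cell, and the median of expressed genes stood at 8.25 to 8.41 and at 6.39 to 6.75 FPKM. Early 2-cell libraries varied more: the median SD of a gene over replicates was 0.247 log2 units against 0.128 at late 1-cell. Early 2-cell knockout replicate 2 stood apart. The 7 markers of the 2-cell stage summed to 99.1 FPKM at the lowest and 211 at the highest of the 3 early 2-cell libraries, against 19.2 to 23.6 at late 1-cell, and replicate 2 was the lowest for each marker except Duxf3. Genes that rose in controls stood a median of 0.484 log2 units above the late 1-cell knockout mean in replicate 2, against 0.672 and 0.671 in replicates 1 and 3. Genes that fell in controls stood 0.644 log2 units below it, against 0.856 and 0.874. All 9 oocyte markers were detected in every library. Of 19 markers of cumulus and granulosa cells, 7 were listed at 0 in all 6 libraries and the summed level was 2.15 to 2.40 FPKM at late 1-cell and 1.86 to 2.37 at early 2-cell, most of it Cyp19a1. Sperm markers summed to 1.73 to 4.90 and 0.887 to 2.52 FPKM, with Prm1, Tnp1, Tnp2 and Akap4 listed at 0. All 6 blood markers were listed at 0. The 4 markers of oviduct and stroma summed to 0.2 to 0.563 FPKM at late 1-cell and 2.00 to 5.05 at early 2-cell, with Dcn listed at 0 throughout. The part of these low levels in the results was not tested.

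Bap1 itself (ENSMUSG00000021901.10, chr14:31251450-31259944 in mm10) was at 4.21, 5.51 and 5.68 FPKM in late 1-cell and 7.05, 6.67 and 6.77 in early 2-cell knockouts, and at 24.7 and 25.2 FPKM in late 1-cell and 23.5, 29.2 and 24.8 in early 2-cell controls. Every knockout library was below every control library. The late 1-cell and early 2-cell knockout libraries did not overlap, yet the difference did not pass the test (0.36 ± 0.15 log2 units, SE; limma adjusted p = 0.0817). It passed where the 11 libraries of both genotypes were fitted together (adjusted p = 0.0355), and under median centring, quantile normalization and protein-coding scaling. The labels do not say which exons the flox sites bracket, so remaining reads say nothing about working BAP1. In knockout oocytes and eggs the mean was 4.41 and 4.73 FPKM, and in late 2-cell knockouts the libraries stood at 9.69, 11.7 and 10.0 FPKM.

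Between late 1-cell and early 2-cell fewer genes went up than down in the knockouts, but the largest changes were rises. Of 11437 genes tested, 1928 were higher at early 2-cell (16.9%) and 3764 were lower (32.9%) at a limma adjusted p under 0.05 on log2(FPKM + 1), together 49.8%. Rises of at least 1 log2 unit numbered 599 (5.24%) and falls of that size 1664 (14.5%). Rises of at least 2 log2 units were seen for 185 genes and falls of that size for 155; at 3 log2 units the counts were 68 and 9, and at 4 they were 17 and 1. Values on this scale understate the change of genes near 0. The 3 and 3 libraries did not overlap for 2471 genes that stood higher (21.6%) and 4517 that stood lower (39.5%). The split between rises and falls depended on the scaling. Rises made up 33.9% of the calls on FPKM as deposited, 26.6% with each library rescaled to the same sum, as TPM (1529 higher, 4212 lower), 43.6% with libraries scaled to their nuclear protein-coding sum (2468 and 3196), 51.5% after quantile normalization (2883 and 2719) and 58.8% after centring on the median (3427 and 2397). The median gene moved by -0.194 log2 units as deposited and between -0.34 and 0.10 under these scalings. Under all 5 scalings 1466 genes were called higher and 2335 lower, and changes are read against that shift. The medians of 6 lists described below (PRC1, decay, storage, glycolysis, DNA methylation, and histone chaperones and variants) changed sign between the scalings, so only counts are given for them. Without early 2-cell replicate 2 there were 2080 rises and 4001 falls.

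The genes that rose most were families of the 2-cell stage. The 12 largest rises among named genes with at least 5 FPKM were Usp17lc, Zfp352, Zscan4f, Usp17le, Zscan4b, Usp17lb, Zscan4e, Eif4a3l1, Usp17la, Usp17ld, Zscan4c and Tmem92. Zscan4 genes encode zinc finger proteins with a SCAN domain, Usp17l genes ubiquitin-specific proteases, and Eif4a3l1 an intronless copy of the RNA helicase EIF4A3. Zscan4f (ENSMUSG00000070828.10, chr7:11397915-11402318) was at 0.638, 0 and 0.108 FPKM in late 1-cell and 40.1, 6.46 and 41.3 in early 2-cell replicates 1, 2 and 3, a rise of 4.27 ± 0.61 log2 units (SE; limma adjusted p = 0.000833). Zfp352, a zinc finger gene (chr4:90218820-90225702), was at 0, 0.0262 and 0.142 FPKM in late 1-cell and 28.0, 11.2 and 25.0 in early 2-cell and rose by 4.31 ± 0.31 (adjusted p = 5.39e-05). Usp17lc (chr7:103415072-103419880) was at 1.53, 0.617 and 1.10 FPKM in late 1-cell and 49.1, 27.5 and 47.0 in early 2-cell and rose by 4.32 ± 0.25 (adjusted p = 3.36e-05). In these 3 genes all early 2-cell libraries were above all late 1-cell ones, and replicate 2 was the lowest of the early 2-cell libraries. The other 9 rose by 3.36 to 4.00 log2 units, with adjusted p from 3.36e-05 to 0.000332, and the calls of all 12 stood under every alternative run. Near-identical copies make single members uncertain: 86.8% of the 50-base words of Zscan4f, 44.7% of those of Usp17lc and 7.1% of those of Zfp352 also occur in other annotated genes.

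**Figure D1:**
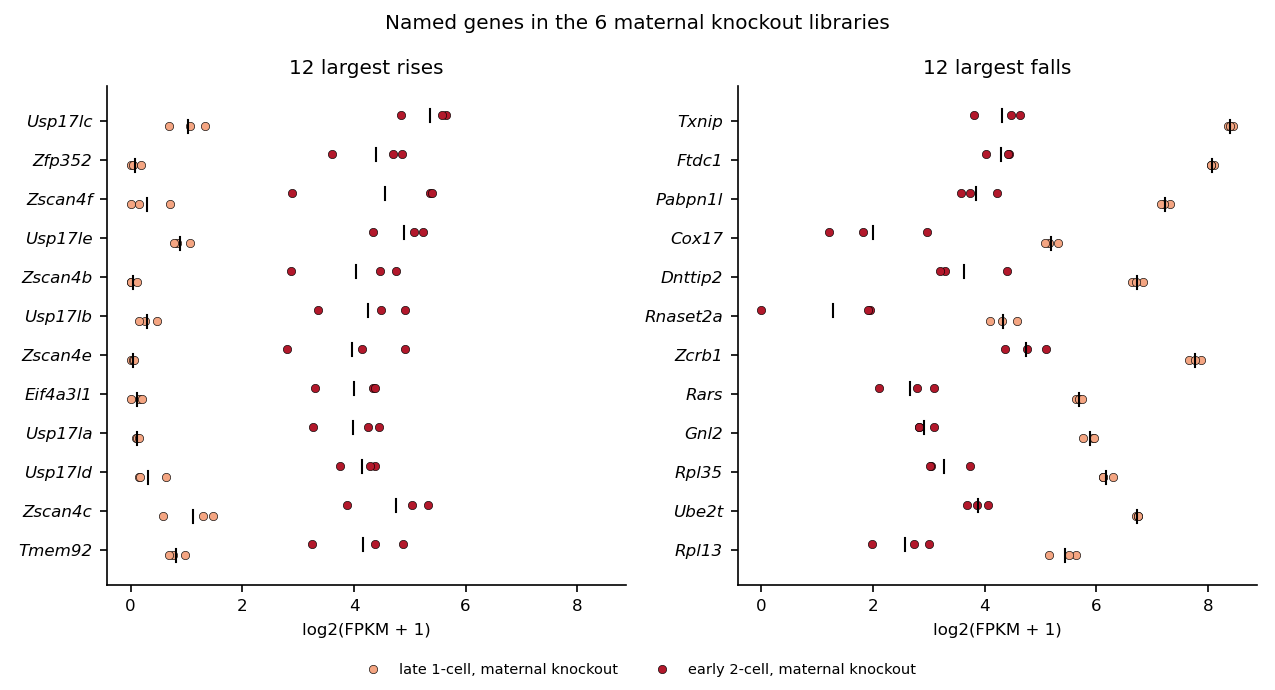
Levels of the 12 largest rises (left) and the 12 largest falls (right) on a log2(FPKM + 1) axis. Each point is 1 of 3 late 1-cell (light) or 3 early 2-cell (dark) maternal knockout libraries and the bar is the group mean; the 2 stages do not overlap in any of the 24 genes, and early 2-cell replicate 2 is the lowest dark point of Zscan4f, which is at 6.46 FPKM.

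The start sites of Zscan4f and Zfp352 are shown because these genes went from near 0 to a mean above 20 FPKM within the step. Both are RefSeq promoters on GRCm38.p6, from 250 bases before to 50 after the start, printed in the direction of the gene with matches to the searched letters in capitals.
Zscan4f, chr7:11397665-11397964, plus strand: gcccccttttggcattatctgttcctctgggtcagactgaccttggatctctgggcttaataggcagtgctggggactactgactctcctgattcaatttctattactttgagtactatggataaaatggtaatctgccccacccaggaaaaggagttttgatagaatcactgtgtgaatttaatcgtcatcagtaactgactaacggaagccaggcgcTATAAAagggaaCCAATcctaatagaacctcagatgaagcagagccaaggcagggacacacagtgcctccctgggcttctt
Zfp352, chr4:90218570-90218869, plus strand: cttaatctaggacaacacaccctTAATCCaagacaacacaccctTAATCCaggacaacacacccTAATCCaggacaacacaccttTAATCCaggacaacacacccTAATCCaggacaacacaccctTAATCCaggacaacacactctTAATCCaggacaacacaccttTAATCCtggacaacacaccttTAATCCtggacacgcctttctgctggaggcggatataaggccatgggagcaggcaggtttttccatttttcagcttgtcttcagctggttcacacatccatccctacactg
The Zscan4f promoter holds the letters TATAAA 31 bases and CCAAT 19 bases before the start and has 3 CG pairs. The Zfp352 promoter holds 9 copies of TAATCC, the core bound by OTX and related homeodomains, between 227 and 61 bases before the start, and 2 CG pairs. Promoters were found for 50 of the 185 genes that rose by at least 2 log2 units and for 111 of the 155 that fell by as much (133 promoters). Both strands were searched. TATAAA was in 26% of the promoters of the risers, 6.8% of those of the fallers, 7.8% of those of all genes tested and 13.6% of all promoters. For TAATCC the shares were 26%, 5.3%, 5.7% and 7.1%, and for CCAAT 56%, 45.9%, 39.2% and 37.4%. GGGCGG, the GC box, ran the other way, with 10 of the 50 riser promoters, 51.9%, 60.3% and 35.7%. CCGGAAGT, an ETS site, was in 0 of the 50 riser promoters, 21.8% of those of the fallers, 8.7% of those tested and 3.9% of all. The median promoter had 3 CG pairs among the risers and 21 among the fallers and among genes tested. These are counts of letters in a window and were not tested; members of one family share promoter sequence and are not independent.

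Of the 26 genes listed as 2-cell genes, 22 were tested, 19 rose and 2 fell, beside 16.9% and 32.9% of all genes. The median was 3.5 log2 units against -0.194 for all genes tested. Without early 2-cell replicate 2 the counts were 19 and 3. Members near 0 at late 1-cell passed the filter on low values only through early 2-cell, where they were high. With no such filter 19 of the 26 rose and 1 fell, with a median of 2.95. Zscan4d was already above 1 FPKM before the step, at 4.74, 2.09 and 1.89 FPKM in late 1-cell and 39.5, 18.4 and 28.3 in early 2-cell (2.94 ± 0.33; adjusted p = 0.000284). Tcstv3 was at 2.28, 2.01 and 2.54 FPKM in late 1-cell and 18.4, 9.62 and 18.8 in early 2-cell (2.29 ± 0.25; adjusted p = 0.00025), and its relative Tcstv1, which started higher, at 12.8, 15.0 and 11.7 FPKM in late 1-cell and 26.6, 17.7 and 31.6 in early 2-cell (0.86 ± 0.20; adjusted p = 0.00864). The stages did not overlap in either Tcstv gene. Spz1, a helix-loop-helix leucine zipper gene first known from testis, was at 0.0442, 0.029 and 0.185 FPKM in late 1-cell and 9.22, 4.4 and 4.17 in early 2-cell (2.60 ± 0.28; adjusted p = 0.000249). Tdpoz3, of a family with TRAF and POZ domains, was listed at 0 in all late 1-cell libraries and at 3.35, 0.658 and 6.39 FPKM at early 2-cell (1.91 ± 0.47; adjusted p = 0.0101). Tdpoz1 and Tdpoz4 did not pass the filter on low values and stood at 2.01, 0.508 and 0.855 and at 2.31, 0.334 and 0.538 FPKM at early 2-cell. The 2 listed genes that fell were already abundant: Arg2, an arginase, went from 104, 98.2 and 92.5 to 25.4, 36.1 and 20.3 FPKM (-1.85 ± 0.18; adjusted p = 0.000193), and Sp110, a nuclear body protein, from 140.2, 141 and 159.9 to 85.8, 121 and 114 (-0.47 ± 0.14; adjusted p = 0.0211, a call lost in 5 of 18 settings, among them median centring, protein-coding scaling and leaving out late 1-cell replicate 3). Words shared with other annotated genes made up 66.2% of Tdpoz3, 49.6% of Zscan4d and 42.3% of Sp110.

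Of 24 tested of 28 listed factors of genome activation, 8 rose and 7 fell (median 0.26), beside 16.9% and 32.9% of all genes. Over the 5 scalings 7 to 13 rose and 4 to 9 fell, with 13 and 4 under median centring. Gabpa, an ETS factor, was at 0.385, 0.219 and 0.374 FPKM in late 1-cell and 5.79, 2.08 and 8.55 in early 2-cell (2.14 ± 0.38; limma adjusted p = 0.00214), and Klf5, a Krüppel-like factor, at 0.0589, 0 and 0.272 FPKM in late 1-cell and 1.95, 1.68 and 4.46 in early 2-cell (1.67 ± 0.29; adjusted p = 0.00217). Both were near 0 before the step. Nfya, a subunit of the factor that binds CCAAT, fell from 137, 138 and 113 to 63.2, 58.3 and 48.9 (-1.18 ± 0.13; adjusted p = 0.000243), and Esrrb, a nuclear receptor, from 20.7, 18.4 and 15.7 to 7.15, 6.13 and 2.67 (-1.68 ± 0.28; adjusted p = 0.00173). Trim28, the KAP1 corepressor, also fell, with -1.15 ± 0.18 (adjusted p = 0.00111). Nr5a2, at 14.9, 14.0 and 11 FPKM in late 1-cell and 9.57, 9.61 and 10.3 in early 2-cell, did not pass (-0.39; adjusted p = 0.0501), nor did the maternal factor Klf17 (0.21; adjusted p = 0.0685). Pou5f1 rose slightly from 117, 110.1 and 106 to 142, 122 and 149.8 (adjusted p = 0.0344). The call stood in 10 of 18 settings. Among the losses were those without any one of the late 1-cell replicates or of early 2-cell replicates 1 and 3.

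Obox genes encode oocyte-specific homeobox proteins. Of 5 tested of 7, 3 rose and 1 fell, beside 16.9% and 32.9% of all genes. Obox5 went from 334, 332 and 327 to 667, 562 and 669.6 FPKM (0.93 ± 0.09; limma adjusted p = 0.00021) and Obox1 from 393, 397 and 419 to 562, 520.0 and 529 (0.41 ± 0.08; adjusted p = 0.0036), so the stages did not overlap in either. After quantile normalization Obox1 no longer passed. Obox2 fell from 376, 460.2 and 499 to 183, 288 and 296 (-0.82 ± 0.19; adjusted p = 0.00794), a call lost under median centring and with no filter on low values. Obox7, the third riser, was at 10.8, 12.7 and 11.9 FPKM in late 1-cell and 19.7, 13.6 and 18.2 in early 2-cell (adjusted p = 0.0289). The call stood in 11 of 18 settings. Among the losses were those where any library but early 2-cell replicate 2 was left out. These genes lie in 1 cluster on chromosome 7 and share sequence, 57.4% of the words in Obox1 and 65.1% in Obox2.

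All 13 protein genes of the mitochondrial genome rose (median 1.64), also without early 2-cell replicate 2, and 11 to 13 did so under the 5 scalings. The gene mt-Co2, for a cytochrome oxidase subunit, went from 32.9, 43.8 and 48.7 to 172, 125 and 209.7 FPKM (1.98 ± 0.20; limma adjusted p = 0.00022). The complex I gene mt-Nd1 went from 896, 959.6 and 940.4 to 3756, 2494 and 2729.8 (1.66 ± 0.15; adjusted p = 0.000131), and mt-Nd6, which is encoded on the opposite strand, from 184, 229 and 266 to 599, 422 and 495 (1.16 ± 0.16; adjusted p = 0.000819). Cytochrome b, mt-Cytb, rose by 1.19 ± 0.19 (adjusted p = 0.00135) but stood at 0.0 after quantile normalization. The nuclear genes of the same respiratory complexes moved the opposite way. Of 74 tested of 77, 1 rose and 59 fell (median -1.31), beside 16.9% and 32.9% of all genes. Cox4i1, a cytochrome oxidase subunit, fell from 41.6, 29.1 and 28.9 to 4.56, 5.90 and 2.71 FPKM (-2.69 ± 0.24; adjusted p = 0.000129) and Ndufc2, of complex I, from 17.0, 16.6 and 19.8 to 2.56, 2.38 and 1.56 (-2.58 ± 0.17; adjusted p = 4.34e-05). The 1 that rose was Cox8a, from 41.1, 29.4 and 34.0 to 68.3, 49.6 and 55.0 (0.71 ± 0.16; adjusted p = 0.00623).

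Replication-dependent histone genes, which supply the nucleosomes of newly copied DNA, moved in 1 direction: 33 of 53 tested rose and 0 fell, with a median of 0.64. Among all genes 16.9% rose and 32.9% fell. Without early 2-cell replicate 2 the counts were 29 and 2. Where the filter asked for a mean of 5 FPKM or more, 31 were tested and 17 rose. Members near 0 at late 1-cell, such as H1f5, passed the filter on low values only through early 2-cell, where they were high. With no such filter 23 of 64 rose and 0 fell, with a median of 0.62, beside 1596 and 3115 of 28073 genes. H3c2 was at 7.07, 6.52 and 6.86 FPKM in late 1-cell and 20.4, 16.2 and 22.4 in early 2-cell (1.39 ± 0.14; limma adjusted p = 0.000223), H2ac20 at 27.2, 44.4 and 56.9 FPKM in late 1-cell and 96.0, 104 and 153 in early 2-cell (1.47 ± 0.27; adjusted p = 0.00252) and the linker histone gene H1f5 at 0.284, 0.246 and 0.157 FPKM in late 1-cell and 3.45, 2.71 and 9.33 in early 2-cell (2.18 ± 0.36; adjusted p = 0.00157). In each of them the lowest early 2-cell library was above the highest late 1-cell one. Hist1h2an rose most of these 4, by 2.81 ± 0.24 (adjusted p = 0.000107). In Hist1h2an 85.8% of the words, and in H2ac20 55.0%, occur in other annotated genes, so their single values are uncertain. Among 23 histone variants and chaperones 5 rose and 10 fell (1 to 8 and 6 to 11 over the scalings). The variant H2az1 rose from 4.90, 3.42 and 2.20 to 9.27, 8.49 and 6.86 (1.06 ± 0.24; adjusted p = 0.00632). The oocyte linker histone H1f8 fell from 487, 455 and 273 to 101, 172 and 136 (-1.55 ± 0.25; adjusted p = 0.00137), and H3f3a, an H3.3 gene, from 74.6, 72.1 and 63.9 to 28.3, 28.2 and 26.4 (-1.31 ± 0.10; adjusted p = 6.16e-05).

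**Figure D2:**
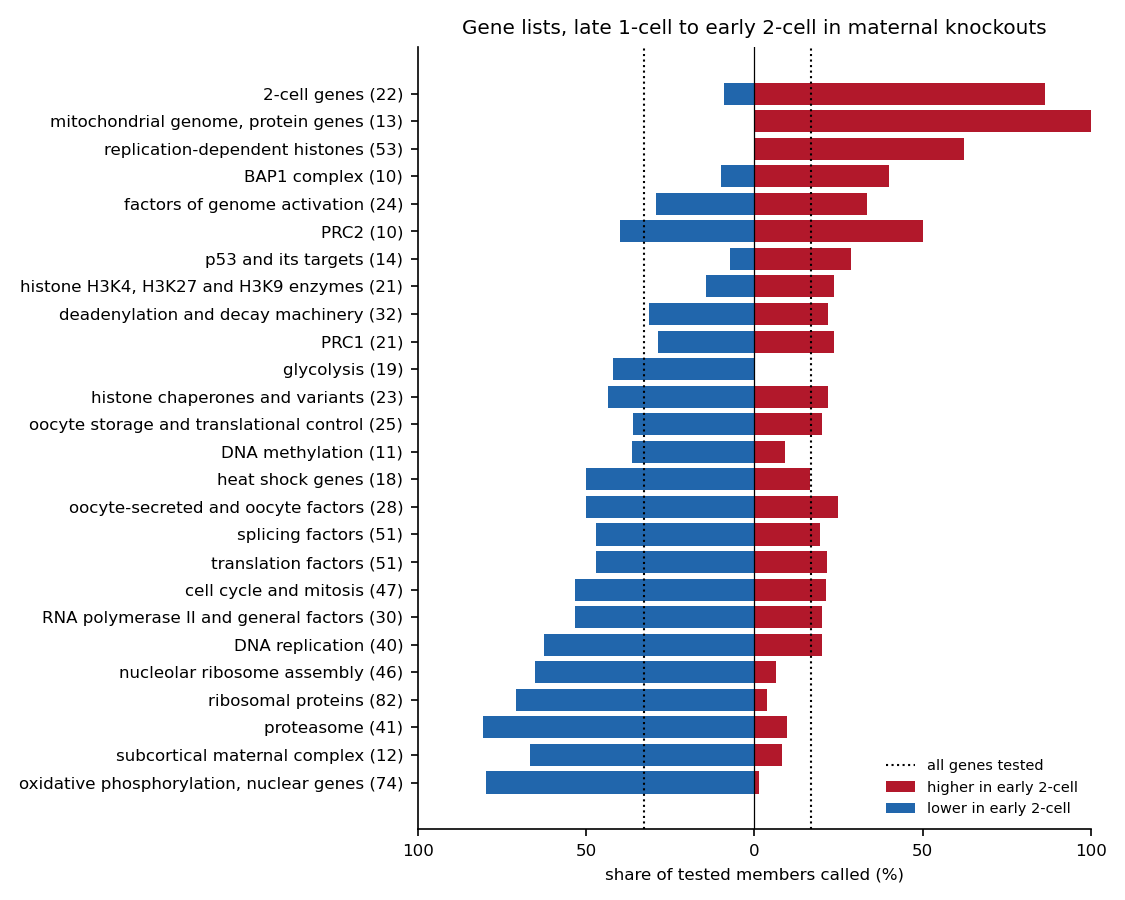
Share of the tested members of each gene list (number tested in brackets) called higher, to the right, or lower, to the left, at early 2-cell in maternal knockouts; dotted lines mark the 16.9% and 32.9% of all genes tested. Lists are ordered by median change, from 2-cell genes (3.5) at the top to nuclear genes of oxidative phosphorylation (-1.31) at the bottom.

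The largest falls were of RNAs already present in the knockout oocyte. The 12 largest were Txnip, Ftdc1, Pabpn1l, Cox17, Dnttip2, Rnaset2a, Zcrb1, Rars, Gnl2, Rpl35, Ube2t and Rpl13. Txnip, a thioredoxin-binding protein (ENSMUSG00000038393.14, chr3:96557957-96561883), went from 350.4, 326 and 337 to 21.2, 23.7 and 13.0 FPKM in replicates 1, 2 and 3 (-4.10 ± 0.19 log2 units; limma adjusted p = 1.57e-05). Ftdc1, a ferritin-domain gene (chr16:58613675-58616978), went from 275, 264 and 264 to 15.2, 20.6 and 20.4 (-3.78 ± 0.12; adjusted p = 8.03e-06). Pabpn1l, an embryonic poly(A)-binding protein (chr8:122619471-122622739), went from 158, 147 and 142 to 12.4, 17.8 and 11 (-3.38 ± 0.16; adjusted p = 1.57e-05). In these 3 genes the late 1-cell libraries were all within a narrow band and far above the early 2-cell ones. Zcrb1, an RNA-binding protein of the minor spliceosome (chr15:93386097-93398334), went from 201, 233 and 217 to 19.5, 33.2 and 26.2 (-3.02 ± 0.17; adjusted p = 3.36e-05). The others include Gnl2 (a nucleolar GTPase), Dnttip2 (a nucleolar protein), Rars (arginyl-tRNA synthetase), Cox17 (a copper chaperone of cytochrome oxidase) and Ube2t (a ubiquitin-conjugating enzyme of DNA crosslink repair). The 9 after the first 3 fell by 2.86 to 3.18 log2 units, with adjusted p up to 0.00125, and the calls of all 12 stood under every alternative run. Rpl35 and Rnaset2a have 84.0% and 78.9% of their words in other genes, so their single values are uncertain.

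The promoter of Zcrb1 is printed as a contrast to those of the rising genes; it is the RefSeq window on GRCm38.p6 with GC-box and ETS letters in capitals.
Zcrb1, chr15:93398285-93398584, minus strand: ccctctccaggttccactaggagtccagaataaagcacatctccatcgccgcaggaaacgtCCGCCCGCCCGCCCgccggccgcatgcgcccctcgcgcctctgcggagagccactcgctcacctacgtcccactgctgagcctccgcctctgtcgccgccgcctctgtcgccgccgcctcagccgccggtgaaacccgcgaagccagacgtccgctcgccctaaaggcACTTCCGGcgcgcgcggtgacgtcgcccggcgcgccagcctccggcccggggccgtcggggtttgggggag
It has 43 CG pairs, 3 overlapping GC boxes on the other strand between 189 and 181 bases before the start, and the letters of the ETS site on the other strand 21 bases before the start.

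Oocyte genes were called in both directions. Of 28 tested oocyte-secreted and oocyte factors 14 fell and 7 rose (median -0.36), beside 32.9% and 16.9% of all genes. Under median centring 11 fell and 9 rose (-0.064). Gdf9, the oocyte growth factor whose promoter drives the iCre, went from 586, 392 and 277 to 117, 146 and 102 FPKM (-1.72 ± 0.25; limma adjusted p = 0.000909). Oosp2, a secreted oocyte protein, went from 109, 98.0 and 116 to 22.7, 23.5 and 20.7 (-2.22 ± 0.10; adjusted p = 1.57e-05), and the transcription factor Nobox from 131, 132 and 124 to 48.2, 63.7 and 46.7 (-1.29 ± 0.13; adjusted p = 0.000186). The zona gene Zp3, the meiotic kinase Mos and tissue plasminogen activator Plat also fell (-1.60, -1.54 and -1.43 log2 units, with adjusted p up to 0.0017). Against this, Rfpl4, an oocyte RING finger gene, rose from 522, 457 and 447 to 845, 746 and 819 (0.76 ± 0.10; adjusted p = 0.000514). Bcl2l10 rose from 637, 561 and 542 to 760.2, 812 and 778 (0.44 ± 0.09; adjusted p = 0.00524), but stood at -0.145 after quantile normalization. Of the 12 genes of the subcortical maternal complex, the protein lattice beneath the membrane of egg and zygote, 8 fell and 1 rose (median -1.30). Tle6 went from 183, 119.7 and 117 to 19.2, 30.5 and 17.1 (-2.61 ± 0.24; adjusted p = 0.000131), Padi6 from 329, 249 and 253 to 54.0, 73.2 and 46.9 (-2.25 ± 0.17; adjusted p = 7.17e-05), and Nlrp5 and Ooep fell too (-1.63 and -1.51). The 1 that rose was Zbed3, an abundant RNA at 3835, 3386 and 3549.5 FPKM in late 1-cell and 6544, 5478 and 6430.4 in early 2-cell (0.77 ± 0.11; adjusted p = 0.000962), which turned to -0.115 after quantile normalization.

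Genes that store maternal RNA and genes that destroy it were called in both directions, at counts that moved with the scaling. Of 25 genes of storage and translational control 5 rose and 9 fell (4 to 9 and 7 to 12 over the scalings). Zar1 and Zar1l, which hold stored RNA, went from 215, 179 and 174 to 33.6, 60.5 and 41.8 FPKM (-2.07 ± 0.20; limma adjusted p = 0.000155) and from 223, 229 and 209.9 to 37.1, 56.7 and 36.3 (-2.35 ± 0.16; adjusted p = 5.13e-05). Igf2bp2 and Cnbp, both RNA-binding, fell as well (-1.34 and -1.38). Ybx2, the germ-cell Y-box protein, rose from 121, 126 and 137 to 183, 179 and 164 (0.45 ± 0.09; adjusted p = 0.00374). Of 32 tested genes of deadenylation and decay 7 rose and 10 fell, close to the 16.9% and 32.9% of all genes, and under median centring 15 rose and 6 fell. Btg4, the adaptor that brings the deadenylase to maternal RNA, was at 954, 1039 and 1010.5 FPKM in late 1-cell and 1308, 1336 and 1509 in early 2-cell (0.47 ± 0.09; adjusted p = 0.00416); after quantile normalization the value turned to -0.497. The deadenylases Cnot7 and Pan3 rose by 0.61 ± 0.09 (adjusted p = 0.000925) and 0.86 ± 0.09 (adjusted p = 0.000213). The decapping gene Dcp1a fell from 168, 202 and 211 to 98.6, 111 and 82.6 (-0.99 ± 0.13; adjusted p = 0.000639), and Pabpn1l, described above, is the largest fall of this list.

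Genes of protein synthesis and protein breakdown were among the lowest lists. Their counts stand beside 32.9% of all genes lower and 16.9% higher. Of 82 tested ribosomal protein genes 58 fell and 3 rose (median -1.13). Rpl19 went from 126, 119 and 112 to 21.2, 22.6 and 11.4 FPKM (-2.69 ± 0.22; limma adjusted p = 9.26e-05), while Rps19, at a low level, rose from 1.52, 1.81 and 1.34 to 5.21, 3.29 and 3.92 (0.99 ± 0.20; adjusted p = 0.00381). Ribosomal protein genes have many pseudogene copies, and reads may be split between them. Of 46 genes of nucleolar ribosome assembly 30 fell and 3 rose. Utp4 went from 58.9, 53 and 58.1 to 10.3, 13.8 and 9.07 (-2.27 ± 0.15; adjusted p = 4.34e-05), and nucleolin, Ncl, fell (-1.48; adjusted p = 8.22e-05). Nucleophosmin, Npm1, rose from 321, 339 and 342 to 449, 516 and 453 (0.50 ± 0.09; adjusted p = 0.00239). Of 51 translation factors 24 fell and 11 rose (18 to 28 and 8 to 17 over the scalings). Eif3m went from 28.0, 26.7 and 24.1 to 2.97, 4.77 and 1.71 (-2.78 ± 0.25; adjusted p = 0.000131). The 2-cell copy Eif4a3l2 rose from 0.584, 0.98 and 1.05 to 8.17, 8.18 and 29.9 (2.89 ± 0.44; adjusted p = 0.00107), and 63.4% of its words occur in other annotated genes. Of 41 proteasome genes 33 fell and 4 rose. Psmd12, a lid subunit, went from 50.4, 55.5 and 52.7 to 7.28, 10.5 and 5.83 (-2.63 ± 0.18; adjusted p = 5.13e-05), and the core subunit Psma7 fell (-1.94; adjusted p = 0.000129). Psme4, an activator that caps the core and acts on histones, rose from 58.7, 58.1 and 61.1 to 116, 98.0 and 113 (0.86 ± 0.10; adjusted p = 0.000281).

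Genes of transcription, splicing and the cell cycle were called in both directions, against 32.9% of all genes lower and 16.9% higher. Of 30 genes of RNA polymerase II and its general factors 16 fell and 6 rose (14 to 17 and 4 to 8 over the scalings). Polr2d went from 113, 118 and 115 to 20.6, 23.4 and 18.3 FPKM (-2.43 ± 0.11; limma adjusted p = 1.57e-05) and Polr2k from 30.3, 28.7 and 30.3 to 1.71, 4.74 and 3.99 (-2.85 ± 0.26; adjusted p = 0.000131). The other two subunits named, Polr2c and the largest one Polr2a, rose by 0.83 (adjusted p = 0.000322) and 0.63 (adjusted p = 0.013; lost without late 1-cell replicate 2 or 3). Of 51 splicing genes 24 fell and 10 rose (16 and 14 under median centring). Sf3a3 and Prpf3 fell (-2.08 and -1.79), and the Sm core gene Snrpf rose from 54.9, 58.1 and 64.0 to 164, 135 and 194 (1.45 ± 0.14; adjusted p = 0.000148), as did Snrpe (1.04 ± 0.14; adjusted p = 0.000616). Of 47 cell cycle genes 25 fell and 10 rose (18 and 14 under median centring). The checkpoint kinase Bub1b went from 127, 137 and 96.3 to 22.1, 30.1 and 20.1 (-2.27 ± 0.18; adjusted p = 7.17e-05) and Fbxo5, an inhibitor of the anaphase-promoting complex, fell as well (-1.79). Ccne1, cyclin E1, rose from 2.35, 2.85 and 2.44 to 7.79, 6.77 and 12.7 (1.46 ± 0.22; adjusted p = 0.00114), and Pttg1, securin, from 307, 273 and 279 to 485, 452 and 465 (0.71 ± 0.09; adjusted p = 0.000392). Of 40 replication genes 25 fell, among them the helicase genes Mcm4 (-1.44) and Gins1 (-2.28), and 8 rose, among them Gmnn (0.73) and Orc6 (0.49).

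Of 19 glycolysis genes 8 fell and 0 rose (6 to 9 and 0 to 3 over the 5 scalings), including Ldhb, lactate dehydrogenase B, from 736, 540.0 and 589 to 268, 380.4 and 288 FPKM (-1.0 ± 0.16; limma adjusted p = 0.00139). Of 18 heat shock genes 9 fell and 3 rose (7 to 9 and 3 to 7). Among all genes 32.9% fell and 16.9% rose, the background for the glycolysis, heat shock and p53 lists. The constitutive chaperones Hspa8 and Hsp90aa1 went from 127, 123 and 119 to 29.7, 21.0 and 23.7 (-2.28 ± 0.13; adjusted p = 3.36e-05) and from 718, 861 and 682 to 206, 339 and 211 (-1.61 ± 0.19; adjusted p = 0.000374). In Hspa8 39.4% of the words occur in other annotated genes. The inducible Bag3 rose from 0.174, 0.114 and 0.0217 to 4.31, 1.23 and 4.72 (1.89 ± 0.35; adjusted p = 0.00279). Of 14 tested genes of p53 and its targets 4 rose and 1 fell (3 to 7 and 1 to 2). With no filter on low values 2 of 22 rose and 2 fell, beside 1596 and 3115 of 28073 genes. The risers Plk2 and Cdkn1a passed the filter through early 2-cell, where they were high. Plk2 went from 0.814, 1.11 and 0.73 to 8.17, 6.09 and 14.9 (2.43 ± 0.29; adjusted p = 0.000371) and Cdkn1a, the p21 inhibitor, from 0.383, 0.493 and 0.725 to 2.43, 1.17 and 5.74 (1.27 ± 0.38; adjusted p = 0.022). The call of Cdkn1a stood in 14 of 17 settings and was lost, among others, without late 1-cell replicate 1 or 2. Tigar was the 1 that fell (-1.46). Of 14 blastocyst lineage genes only Gata4 and Dab2 passed the filter, and both rose, by 0.60 (adjusted p = 0.0131; lost without late 1-cell replicate 2 or 3) and 0.51 (adjusted p = 0.0031).

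Genes of the BAP1 complex and of Polycomb were called in both directions. The counts moved with the scaling and are given with their range over the 5 scalings, beside 16.9% of all genes higher and 32.9% lower. Of 10 tested genes of the BAP1 complex 4 rose and 1 fell (4 to 8 and 0 to 2). Asxl2, a partner that activates BAP1, went from 4.88, 5.55 and 7.45 to 12, 9.98 and 9.72 FPKM (0.74 ± 0.17; limma adjusted p = 0.00802) and Foxk2, a forkhead protein that recruits it, from 47.9, 42.3 and 43.6 to 78.6, 63.1 and 69.5 (0.64 ± 0.11; adjusted p = 0.00187). Asxl1 fell from 67.1, 66.5 and 65.7 to 52.7, 57.8 and 55.7 (-0.26 ± 0.09; adjusted p = 0.0343). Its value was 0.035 under median centring. The call stood in 8 of 18 settings and was lost, among others, when any library but early 2-cell replicate 2 was left out. Of 21 tested PRC1 genes, which write or read the mark that BAP1 removes, 5 rose and 6 fell (4 to 10 and 3 to 6). Bmi1 rose from 229.6, 245 and 249 to 471, 409 and 487 (0.91 ± 0.09; adjusted p = 0.000226), whereas Pcgf1 and Pcgf6 of variant PRC1 fell (-1.17, adjusted p = 0.000728, and -1.22, adjusted p = 9.28e-05). The catalytic gene Rnf2 was at 46.7, 44.9 and 43.3 FPKM in late 1-cell and 74.4, 55.3 and 47.9 in early 2-cell and did not pass (adjusted p = 0.0769). It passed in 7 of 18 settings, among them without early 2-cell replicate 3. Of 10 tested PRC2 genes 5 rose and 4 fell (2 to 6 and 1 to 4). Suz12 rose from 148, 161 and 164 to 259.6, 237 and 296 (0.74 ± 0.10; adjusted p = 0.000766), while Ezh2, the H3K27 methylase, stood at 189, 171 and 182 FPKM in late 1-cell and 208, 220.1 and 189 in early 2-cell and did not pass (adjusted p = 0.125). Among 21 enzymes of H3K4, H3K27 and H3K9 methylation and acetylation 5 rose and 3 fell, with 5 to 14 and 1 to 3 over the scalings. The demethylase Kdm5b went from 0.314, 0.527 and 0.41 to 2.85, 1.36 and 1.81 (1.06 ± 0.23; adjusted p = 0.00573), and the H3K9 methylase Setdb1 fell (-0.85; adjusted p = 0.00211). Of 11 DNA methylation genes 4 fell and 1 rose (2 to 4 and 0 to 4). Dnmt1, the maintenance methylase, went from 319.8, 293 and 267 to 48.4, 69.8 and 49.0 (-2.39 ± 0.15; adjusted p = 3.65e-05) and its partner Uhrf1 from 239, 226 and 219 to 95.6, 177 and 121 (-0.84 ± 0.19; adjusted p = 0.00761).

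Maternal and zygotic RNAs were also defined without the libraries of the step, from control oocytes and control late 2-cell embryos. Genes at least 2 log2 units lower in late 2-cell embryos made the maternal set and genes at least 2 higher the zygotic set. Of 1355 maternal genes 1338 were tested: 1064 fell in the knockout step (79.5% against 32.9% of all genes) and 19 rose, with a median of -1.03. Of 1290 zygotic genes only 738 passed the filter on low values, partly through the stage in which they were high. Of those, 439 rose (59.5% against 16.9%) and 35 fell, with a median of 0.92. With no filter on low values the zygotic median was 0.44, and no test was made of either set.

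After the step, most of the genes with the largest rises were higher still at late 2-cell, while those with the largest falls moved both ways. The 185 genes that rose by at least 2 log2 units had a median of 0.038 FPKM in knockout oocytes, 0.032 in eggs, 0.099 at late 1-cell, 8.35 at early 2-cell and 30.7 at late 2-cell, and 157 of them had a higher mean at late than at early 2-cell. The 155 genes with the largest falls had medians of 48.8, 40.8, 33.2, 6.02 and 6.10 FPKM over the same stages, and 72 of them had a higher and 83 a lower mean at late than at early 2-cell. The choice of genes fixes the sizes at late 1-cell and early 2-cell. Zfp352 went on to 119, 99.2 and 96.5 FPKM and Gabpa to 47.4, 41.6 and 49.6 at late 2-cell, and Tmem92 to 85.7, 73.6 and 75.5. Usp17le stood at 22.6, 13.0 and 15.9 FPKM at late 2-cell after 32.8, 19.3 and 36.8 at early 2-cell, ranges that overlap. Usp17ld, at 19.8, 12.5 and 18.6 FPKM at early 2-cell, was lower without overlap at late 2-cell, at 8.19, 6.03 and 8.22. Txnip was at 327 and 325 FPKM (means) in oocytes and eggs and at 13.3, 12.6 and 18.8 at late 2-cell. Ftdc1 and Pabpn1l were lower again at late 2-cell, at 4.29, 5.78 and 9.42 and at 4.81, 4.91 and 5.79 FPKM. Rpl35 came back to 35.4, 31.5 and 43.8, and Fbxo5 to 47.3, 48.3 and 48.8 after 13.4, 14.1 and 10.5. Bcl2l10, which rose into the early 2-cell stage, was at 161, 179 and 163 at late 2-cell.

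**Figure D3:**
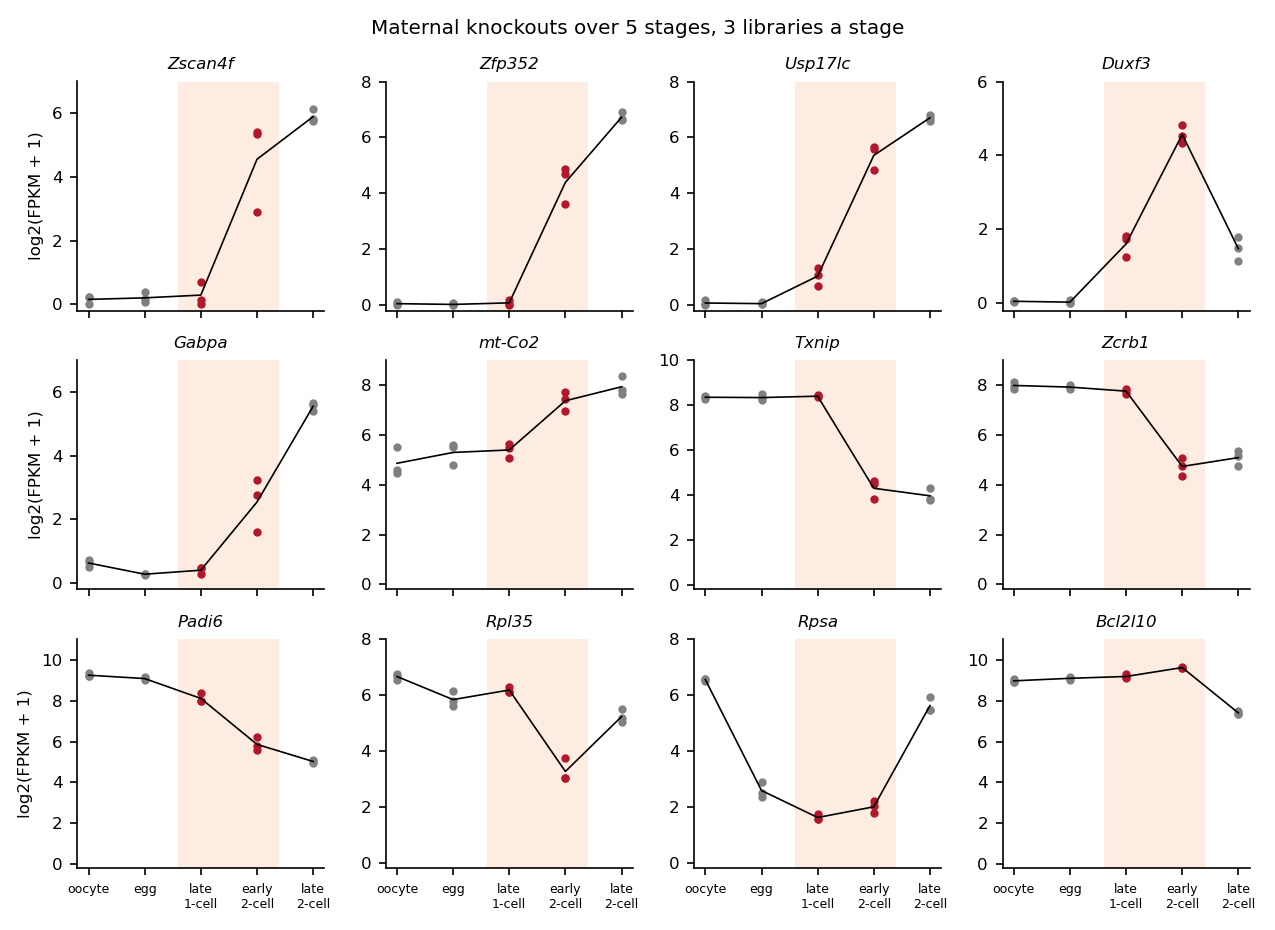
Levels of 12 genes on a log2(FPKM + 1) axis in 5 stages of knockouts, from fully grown oocytes and MII eggs (left) to late 2-cell embryos (right). Points are the 3 libraries of a stage, lines join the means, and the shaded columns are the step described; Duxf3 peaks at early 2-cell while Zfp352 and Gabpa are highest at late 2-cell.

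The same step in controls was close to that in the knockouts for most genes. In a fit of the 11 libraries of both genotypes, 2242 of 12770 genes rose in controls (17.6%) and 3996 fell (31.3%). Across these genes the changes in knockouts and controls, which share no library, had a Pearson r of 0.866 and a Spearman rho of 0.842; genes are not independent replicates. Genes that rose in controls had a median of 0.917 log2 units there and 0.602 in knockouts, and 68.4% of them were also called higher in knockouts. Genes that rose in knockouts had 0.705 there and 0.665 in controls. For falls the pairs were -0.992 and -0.799, and -0.912 and -0.945. In each pair the first value is enlarged by the choice of the genes on it. The zygotic set was chosen on other libraries, which were controls too. Over its 975 genes that passed the filter in the 11 libraries, some of them through the early 2-cell controls, the median change was 0.652 in knockouts and 1.198 in controls, and 810 genes (83.1%) lay below their control change. With no filter, over all 1290 genes, the medians were 0.417 and 0.86 and 1053 lay below (81.6%); with the filter on the 6 knockout libraries alone, over 738 genes, they were 0.92 and 1.32 and 593 lay below (80.4%). These were chosen after seeing the data. Under the 5 scalings 774 to 821 did so, with medians of 0.652 to 0.917 in knockouts and 1.198 to 1.61 in controls. In the maternal set, 464 of 1351 genes lay lower in knockouts (-1.01 against -1.17). Without early 2-cell knockout replicate 2, which had the smallest shift in either direction, the zygotic median was 0.784 with 751 genes below controls, and the maternal median -1.13 with 592 below. No gene of the zygotic set passed the test of the difference upward and 10 passed it downward, beside 0.125% and 0.211% of all genes tested. Cumulus and granulosa markers summed to 5.10 to 6.70 and 4.82 to 6.10 FPKM in the controls, above the knockouts at both stages, and early 2-cell control replicate 3 gave 19.61% of its sum to Gm23935; the part of either in these differences was not tested.

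Of ribosomal protein genes 76 of 83 changed further down in knockouts than in controls, with a median of -1.13 against -0.306, and 72 to 76 did so under the 5 scalings. Without early 2-cell knockout replicate 2 it was 77. Their summed level started higher, at 2667 to 2953 FPKM in late 1-cell knockouts against 2082 to 2146 in controls, and ended lower, at 1114 to 1213 against 1333 to 1377 at early 2-cell. The stages and genotypes did not overlap in any of these 4 sums. Of nuclear genes of oxidative phosphorylation 62 of 75 lay lower (-1.30 against -0.775; 55 to 62 under the scalings), and of replication-dependent histones 48 of 56 (0.64 against 1.09; 45 to 49). Protein genes of the mitochondrial genome summed to 5254 to 6763 FPKM in late 1-cell knockouts against 8697 to 8714 in controls, and to 13213 to 19667 against 17680 to 21468 at early 2-cell; 5 of the 13 lay below their control change. Over all genes tested 5929 of 12770 lay lower in knockouts. Among the ribosomal protein genes 6 passed the test of the difference, and these 6 were lower in knockouts, beside 0.211% of all genes tested. Rps26, a small-subunit gene, fell from 31.7, 29.8 and 31.7 to 9.26, 7.5 and 9.82 FPKM in knockouts and was at 18.6 and 18.9 FPKM in late 1-cell and 23.1, 18.7 and 22.1 in early 2-cell controls (difference -1.88 ± 0.18; limma adjusted p = 0.00154). In the controls the stages overlapped. Hspa8 fell in both genotypes and by 1.04 log2 units more in knockouts (adjusted p = 0.0406; controls at 74.2 and 81.3 FPKM in late 1-cell and 35.9, 29.3 and 32.0 in early 2-cell).

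The number of genes whose step differed between the genotypes depended on the libraries fitted. In the 11 libraries the difference between the knockout and the control step passed for 43 of 12770 genes (0.337%), 16 higher (0.125%) and 27 lower (0.211%) in knockouts, with 1881 genes at an unadjusted p under 0.05. With all 26 libraries of the 5 stages fitted together it passed for 317 genes higher and 393 lower. The counts moved with most single libraries. Without late 1-cell control replicate 1 they were 2 and 6, and without replicate 2 of that pair 1 and 6. Without any 1 late 1-cell knockout they were 4 to 7 and 12 to 15, and without early 2-cell control replicate 1 they were 6 and 15. They rose to 56 and 74, 26 and 40, and 40 and 78 without early 2-cell knockout replicates 1, 2 and 3, and to 17 and 44 and to 28 and 50 without early 2-cell control replicates 2 and 3. The 6 highest by the naming rule were Duxf3, Hddc2, Stom, D6Ertd527e, Nup88 and Ss18, and the 6 lowest Pramel7, Platr31, Gpx1, Obox6, Snrpc and Rpsa.

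**Figure D4:**
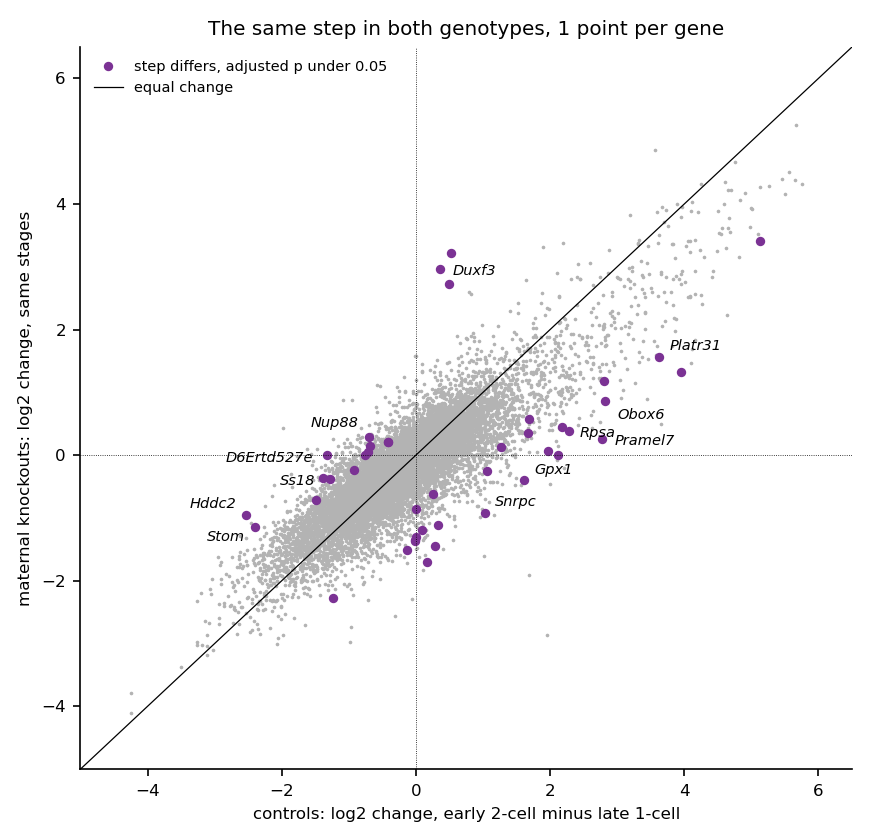
Change from late 1-cell to early 2-cell (log2 units) of each of 12770 genes in controls (x) and maternal knockouts (y). The line marks equal change and the 43 large points are genes whose step differed; Duxf3 and its 2 unlabelled neighbours stand far above the line, and Pramel7 and Rpsa below it.

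Duxf3, the homeobox gene known as Dux (ENSMUSG00000075046.7, chr10:58229979-58232675), rose from 1.39, 2.52 and 2.33 to 19.2, 22.2 and 27.5 FPKM in knockouts (2.96 ± 0.20; limma adjusted p = 4.55e-05). In controls it was at 2.78 and 4.27 FPKM in late 1-cell and 5.52, 3.31 and 5.75 in early 2-cell, a change of 0.36, and the difference was 2.60 ± 0.34 (adjusted p = 0.00975). All 3 early 2-cell knockout libraries were thus above all control ones, and replicate 2 was not the lowest of them. The difference was lost only without late 1-cell control replicate 2 (2.36; adjusted p = 0.0919) and stood under the other 21 alternatives. By late 2-cell the knockouts were at 1.83, 2.45 and 1.20 FPKM. Copies of Dux are repeated in tandem on chromosome 10 and 47.0% of the words of Duxf3 occur in other genes. A further pair of genes of that region outside the naming rule, AW822073 and the pseudogene Gm10807, named here after their values were seen, differed by 2.7 ± 0.25 (adjusted p = 0.00154) and 2.22 ± 0.29 (adjusted p = 0.009). The promoter of Duxf3 is shown because this gene departs most from its control course; the CCAAT letters are in capitals.
Duxf3, chr10:58233040-58233339, minus strand: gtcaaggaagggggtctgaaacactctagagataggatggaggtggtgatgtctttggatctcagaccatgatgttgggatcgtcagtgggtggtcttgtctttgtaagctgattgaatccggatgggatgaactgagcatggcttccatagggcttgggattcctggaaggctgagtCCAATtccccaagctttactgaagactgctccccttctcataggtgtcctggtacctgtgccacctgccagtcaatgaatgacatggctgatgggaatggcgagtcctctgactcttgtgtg
It holds CCAAT 72 bases before the start and 3 CG pairs, with no match to the other letters searched. This RefSeq start lies outside the gene model that the FPKM values belong to. Of genes known to be activated by DUX, Zscan4f, Zfp352 and Tcstv3 differed by -0.86 ± 0.81 (adjusted p = 0.694), -1.45 ± 0.39 (adjusted p = 0.125) and -0.63 ± 0.34 (adjusted p = 0.442), values that did not pass the test. Zscan4b, Zscan4c and Zscan4e also lay below their control change (-0.60, -1.34 and -1.09). The Usp17l genes among the 12 largest rises lay above it, from 0.07 for Usp17lc (adjusted p = 0.962) to 0.63 for Usp17ld (adjusted p = 0.394). None of these passed either.

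The other 5 of the higher group were maternal RNAs that fell in controls and fell less, or not at all, in knockouts. Stom, a membrane scaffold, fell from 70.0, 62.3 and 61.1 to 26.1, 34.4 and 26.3 FPKM in knockouts and was at 69.0 and 67.4 FPKM in late 1-cell and 10.8, 13.5 and 12.3 in early 2-cell controls (difference 1.26 ± 0.18; limma adjusted p = 0.0163). D6Ertd527e, a gene of unknown role, was at 626, 596 and 588 FPKM in late 1-cell and 455, 517 and 432 in early 2-cell knockouts and 641 and 643 FPKM in late 1-cell and 272, 232 and 234 in early 2-cell controls (1.01 ± 0.14; adjusted p = 0.00983). In both genes every early 2-cell knockout library lay above every early 2-cell control. Nup88, of the nuclear pore, was at 109, 106 and 98.7 FPKM in late 1-cell and 118, 153 and 114 in early 2-cell knockouts and at 106 and 106 FPKM in late 1-cell and 68.7, 70.3 and 57.9 in early 2-cell controls (0.98 ± 0.17; adjusted p = 0.0415). Ss18, of the BAF remodelling complex, differed by 0.91 ± 0.15 (adjusted p = 0.0344) and Hddc2, a low-expressed HD-domain gene, by 1.58 ± 0.27 (adjusted p = 0.04). Stom and D6Ertd527e lost the call under 6 and 4 of their alternatives, among them the loss of either late 1-cell control. Hddc2 also started lower in the knockouts, at 3.43, 4.16 and 3.51 against 7.95 and 7.76 FPKM. Nup88, Ss18 and Hddc2 lost the call under 9 to 11 of their alternatives, including the loss of any late 1-cell library.

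The lower group held 6 genes that rose in controls and of which Platr31 alone was called higher in the 6 knockout libraries, where Pramel7 and Obox6 did not pass the filter on low values. Pramel7, of the PRAME-like family, was at 0 and 0.0328 FPKM in late 1-cell and 5.41, 6.06 and 6.37 in early 2-cell controls but only at 0.389, 0.108 and 0.178 FPKM in early 2-cell knockouts (difference -2.51 ± 0.25; limma adjusted p = 0.00173), and it alone of the 12 kept the call under all its alternatives. It reached 19.2, 7.78 and 9.13 FPKM in late 2-cell knockouts, against 92.1 and 70.4 FPKM in late 2-cell controls. Platr31, a noncoding RNA gene, was at 2.90, 1.55 and 2.05 FPKM in early 2-cell knockouts against 9.66, 11.7 and 12.7 in controls (-2.05 ± 0.29; adjusted p = 0.013). Obox6 was at 1.66, 0.675 and 0.767 against 8.31, 6.23 and 6.19 (-1.95 ± 0.32; adjusted p = 0.0278). Both were near 0 at late 1-cell in either genotype. Rpsa, a small-subunit ribosomal protein, was at 2.38, 1.93 and 1.93 FPKM in late 1-cell and 3.64, 3.07 and 2.40 in early 2-cell knockouts and at 1.46 and 1.52 FPKM in late 1-cell and 11.4, 11.3 and 10.6 in early 2-cell controls (-1.90 ± 0.23; adjusted p = 0.00629); in oocytes of the knockout its mean was 92.9 FPKM. Snrpc, the C protein of the U1 particle, fell from 22.0, 31.6 and 24.9 to 13.5, 9.58 and 18.0 in knockouts and rose from 17.4 and 18.7 to 45.5, 39.1 and 30.1 in controls (-1.94 ± 0.32; adjusted p = 0.0278). Gpx1, glutathione peroxidase, overlapped between the stages in knockouts, at 7.11, 4.62 and 5.75 FPKM in late 1-cell and 4.43, 2.83 and 5.55 in early 2-cell, and was at 1.79 and 1.35 FPKM in late 1-cell and 8.04, 4.94 and 7.84 in early 2-cell controls (-2.0 ± 0.35; adjusted p = 0.041). Platr31 and Rpsa lost the call without either late 1-cell control library, and Gpx1, Obox6 and Snrpc under 8 to 10 of their alternatives, leaving out a late 1-cell control among them.

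**Figure D5:**
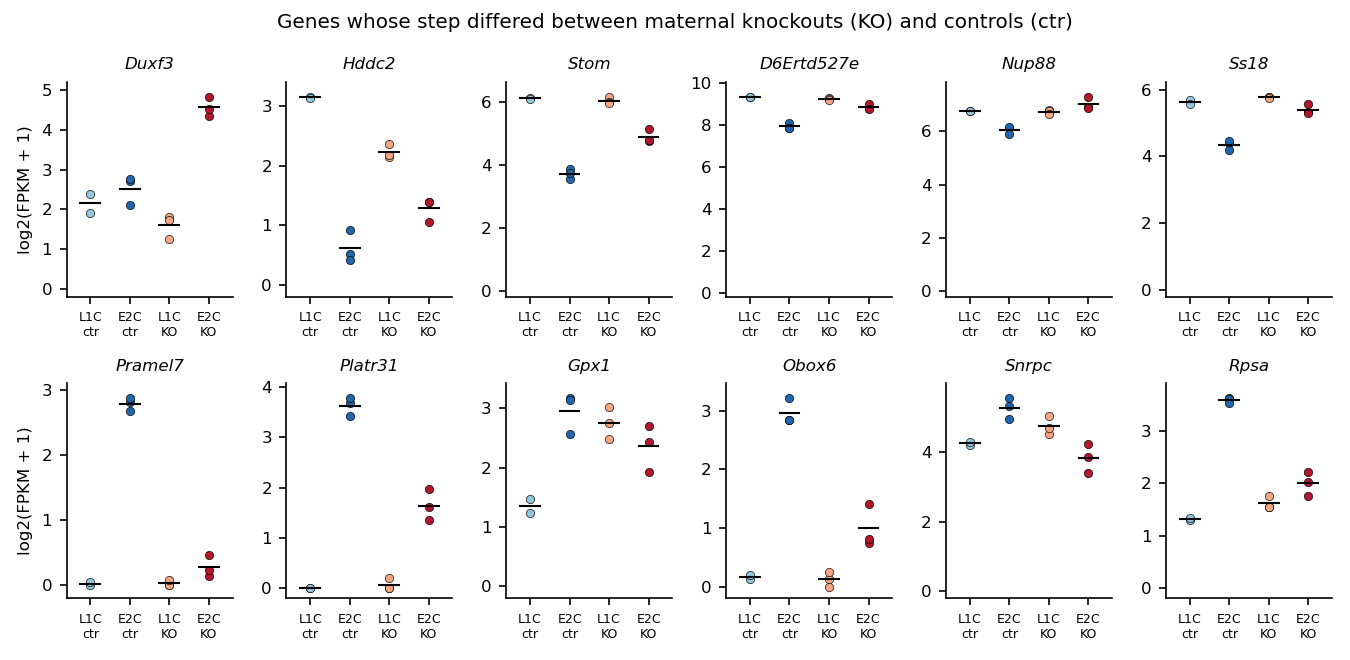
Levels of the 12 genes with the largest differences between the genotypes, on a log2(FPKM + 1) axis, in late 1-cell (L1C) and early 2-cell (E2C) controls (ctr) and maternal knockouts (KO). Points are libraries and bars are means; Duxf3 is high only in early 2-cell knockouts, and Pramel7 is between 5.41 and 6.37 FPKM in early 2-cell controls and near 0 in the other groups.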

How the data were processed

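Total RNA libraries of 5 stages were deposited by the authors as 1 table of FPKM per gene, whose column headers say RPKM. Per the submitters' processing notes, Trim Galore 0.6.6, STAR 2.7.9, StringTie 2.1.7 and the mm10 build were used; their roles, the annotation and any use of strand in counting are not given in the sources used here, so overlapping and antisense genes are uncertain. Of 55401 identifiers, 55141 were found in GENCODE M21 (GRCm38), the source of positions and gene types. Low values did not fall on whole read steps, so the depth is unknown and precision rests on the number of libraries.

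Values were tested as log2(FPKM + 1) with limma 3.58.1 in R 4.3.3 (eBayes with intensity trend, Benjamini-Hochberg adjustment, threshold 0.05), over genes that reached 1 FPKM in 2 or more of the fitted libraries. The knockout step was fitted on its 6 libraries; the control step and the difference of the steps on the 11 libraries of both genotypes. The text names the 12 largest rises and falls and the 6 highest and lowest differences among genes past the threshold, without overlap of the stages (for the difference, in the genotype with the larger step) and with a mean of at least 5 FPKM in a group, leaving out predicted models, pseudogenes and small RNAs. Bap1 and, in each list, up to 4 members by size of change are named as well; list members beyond that were named for a known role or a call in the rarer direction, after their values were seen. The members and lists were chosen with earlier results of these data known. Alternatives were another pseudocount, filters, scalings, fits, a replicate block, a limit on size and leaving out each library; protein-coding scaling was added after seeing the data. Python 3.11.15 and pandas 2.3.3 made the tables. The fits were tested on simulated data.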

Additional observations from a re-analysis of the deposited data

Results flagged for a closer look

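The step from late 1-cell to early 2-cell differed between maternal knockouts and controls, by limma's test of the difference itself, in 12 named genes. The knockout step minus the control step was 2.60 log2 units for Duxf3, 1.58 for Hddc2, 1.26 for Stom, 1.01 for D6Ertd527e, 0.98 for Nup88 and 0.91 for Ss18. On the lower side it was -2.51 for Pramel7, -2.05 for Platr31, -2.0 for Gpx1, -1.95 for Obox6, -1.94 for Snrpc and -1.90 for Rpsa. Of these only Pramel7 kept its call under all of its 21 alternatives. Duxf3 kept it under 21 of 22 and Rpsa under 19 of 21; Nup88 kept it under 11 of 22 and Gpx1 and Obox6 under 11 of 21.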

How the results depend on the processing

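For the knockout step, median centring gave 3427 rises and 2397 falls, and a limit of 1 log2 unit 599 and 1664. Leaving out each library gave 1317 to 2080 higher and 2858 to 4001 lower. Of the genes reported, Asxl1 turned to 0.035 under median centring, and after quantile normalization Bcl2l10 turned to -0.145, Btg4 to -0.497, Zbed3 to -0.115 and mt-Cytb to 0.0; the cause was not tested. The maternal median was -1.432 for sets at 3 log2 units, -1.264 with TPM scaling, -0.734 with median centring and -0.794 after quantile normalization. The zygotic median was 1.317 for sets at 3 log2 units, 1.367 with a pseudocount of 0.1, 0.442 with no filter, 1.205 at a mean of 5 FPKM, 1.214 with median centring and 0.417 with 26 libraries.

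The difference of the steps moved with most settings. Genes higher numbered 48 with no filter, 36 with median centring, 6 without trend, 7 at a limit of 1 log2 unit and 317 with 26 libraries, where 393 were lower. Leaving out each library gave 1 to 56 higher and 6 to 78 lower. Same-numbered knockout libraries had correlated deviations of 0.142, 0.031 and 0.152, so the numbers were not taken to pair samples; late 1-cell replicate 2 was closest to early 2-cell replicate 3 (0.049). With the replicate block the knockout step had 1963 rises and 3722 falls, and 6 and 15 genes differed between the genotypes; of the genes named for the knockout step, Asxl1 lost its call and Rnf2 gained one. Over the single named genes and all settings, 1732 values kept their direction and side of the threshold. Of the rest 111 fell short of it, 28 passed it and 5 changed sign, counting mt-Cytb at 0.0. Leaving out a library gave 927, 82, 3 and 0. The settings include the limit of 1 log2 unit, where every smaller change falls short by definition. Counts of genes, list counts and set medians are not part of these numbers. Without a stated depth, a gene listed at 0 cannot be given an upper limit.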

Other observations

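Beyond the protein-coding genes, small RNA genes were called higher more often than lower. Of 74 small nucleolar RNA genes tested, 35 were higher at early 2-cell in the knockouts (47.3% against 16.9% of all genes) and 0 lower, with a median of 0.88 log2 units. Of 36 small nuclear RNA genes 20 were higher and 0 lower (median 1.01), of 22 mitochondrial tRNA genes 18 and 0 (median 1.23), and of 45 microRNA genes 19 and 1 (median 0.69). Unprocessed pseudogenes, which include copies of 2-cell families such as Zscan4a, were higher in 55 of 107 and lower in 3, whereas protein-coding genes were higher in 1405 and lower in 3471 of 9472. Such genes are short or have many copies, and FPKM of short genes is less certain.

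Among protein-coding genes, those that fell had a median exonic length of 4038 bases, those that rose 4737 and those not called 4914. Across 10268 protein-coding genes, exonic length and the change had a Spearman rho of 0.129 in knockouts and 0.042 in controls, and 0.151 with the difference of the steps, values given as a description since genes share libraries and length enters FPKM. Of the 68 genes that rose by at least 3 log2 units, 16 lie on chromosome 12 and 16 on chromosome 7. The share of all genes tested on these chromosomes was not counted. Those on chromosome 7 include Zscan4 and Usp17l copies that share sequence, so no excess on a chromosome is read from these counts.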
